A study of Sus scrofa with 36 samples.

Results

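The 14-3-3 family was described in the adrenal gland of the pig through its 7 genes, YWHAZ, YWHAB, YWHAE, YWHAG, YWHAH, YWHAQ and SFN. Probes were taken by the gene name in the scanner files (23), or by an NCBI gene ID standing in its place (10, all 9 of YWHAH and A_72_P030081 of YWHAG). RefSeq transcripts added 0. This gave 33 probes among the 45348 in the authors' deposited table and 7 genes among the 10354 named there. The family was selected on results of these same arrays, taken here to be the HS minus TN difference of its probes, so that difference is given below as a description, without p-values for the members. Each of the 33 probes was well above background on all 36 arrays and none was saturated. Every probe on the array named for a member was in the deposited table.

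Adrenal RNA of 36 castrated male pigs was hybridised to 1-colour arrays, each pig on an array of its own. They formed 6 groups of 6: Creole (CR), Large White (LW) and cross (F1) pigs, each kept at 24 °C (thermoneutral, TN) or exposed to heat (heat stress, HS). The exposure lasted 5 days at 32 °C by the protocol in the labels, some pigs having had a day less by the methods, and the array labels name 30 °C. The TN pigs were slaughtered before the temperature was raised and the HS pigs after it, so temperature and day of slaughter cannot be told apart. Litter and pen are not in the labels, and p-values measure only the spread between these pigs. The arrays lay on 5 slides with as many TN as HS arrays each, were scanned on 1 day and had 42436 to 48060 probes well above background. Pairs of arrays correlated at 0.982 to 0.996. The number of arrays limits the precision.

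Markers of both parts of the gland were read. All 7 cortex marker genes and 8 of 9 medulla marker genes had a probe, with log2 intensities from 8.98 for MC2R, the receptor for corticotropin, to 18.3 for CYP11A1, the enzyme that opens steroid synthesis from cholesterol, and from 5.67 for SNAP25 to 18.7 for CHGA, the granin of chromaffin granules. The median of all probes on an array was 8.52 to 8.53. Both parts were mixed in every RNA, and fewer cells of a type and less RNA per cell cannot be told apart.

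The 14-3-3 proteins are small acidic adaptors that form dimers and bind other proteins at phosphorylated serines and threonines. By binding they hold RAF kinases, BAD, FOXO factors, CDC25 phosphatases and YAP1 in an inactive or cytoplasmic state, or keep an enzyme in its active form. They are known as activators of tyrosine hydroxylase, the first enzyme of catecholamine synthesis in chromaffin cells, and as binding partners of STAR, which feeds cholesterol to the mitochondria of steroid-producing cells. The genes encode the isoforms zeta (YWHAZ), beta (YWHAB), epsilon (YWHAE), gamma (YWHAG), eta (YWHAH) and theta (YWHAQ), which are made in most tissues, and sigma (SFN, stratifin), which is mostly epithelial.

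On the Sscrofa11.1 assembly the RefSeq annotation places YWHAG on chromosome 3 from 9994802 to 10023296 and YWHAQ on the same chromosome from 126738795 to 126772784. YWHAZ lies on chromosome 4 from 35975513 to 36009909 and SFN on chromosome 6 from 84188521 to 84189824. YWHAE lies on chromosome 12 from 47601133 to 47645327, YWHAH on chromosome 14 from 48544031 to 48556496 and YWHAB on chromosome 17 from 47298020 to 47317826. YWHAB was read by 10 probes, YWHAH by 9, YWHAZ by 6 and the other 4 genes by 2 probes each.

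The probes are 60 bases long, and several of them read the same or neighbouring bases, so they are not independent readings of a gene. The 33 probes held 30 distinct sequences, and no run longer than 10 bases was shared by probes of different members. The probes on which the results turn are shown by stretches of 30 bases, 5′ to 3′. A_72_P607653 and A_72_P067571, both named YWHAZ, are shown because they share 36 bases on opposite strands, of which the same 30 are printed from each.
YWHAZ A_72_P607653: gtgagtcttgatgataagggtgagaaactg
YWHAZ A_72_P067571: cagtttctcacccttatcatcaagactcac
The first 30 bases of 4 further probes are shown because their heat differences, described below, were large for their SE.
YWHAZ A_72_P624865: gtcacatttgcctatttatgtgcctcagtc
YWHAG A_72_P030081: tgtgtcagtttttctctctgaaaacactcc
YWHAH A_72_P713113: acgtgcacaaccttcttttcaatgcaatgc
YWHAH A_72_P709680: tcactcagtatccagtgctaaacctatgtg
The 2 YWHAE probes are shifted by 1 base and differ at 1 of 59 aligned bases, C27T counted from the 5′ end of A_72_P071851, with the differing base in capitals.
YWHAE A_72_P071851: aatctgtattgttcCtactgaaacacagca
YWHAE O12457: aatctgtattgttcTtactgaaacacagca

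The HS minus TN difference was below 0 by every probe of YWHAH (-0.25 to -0.14), YWHAG (-0.25 and -0.17) and YWHAZ (-0.30 to -0.02). The -0.30 was that of O14657 alone (SE 0.16), which had -0.02 in Creole, -0.74 in Large White and -0.15 in cross pigs, and -0.13 without slide 4. The probes of YWHAB, YWHAE and YWHAQ lay between -0.08 and 0, and those of SFN were at 0.01 and 0.15. The unit is the log2 of the median spot intensity after quantile normalization, and a gene is represented by its brightest probe. A difference is called when its adjusted p in the limma fit over all probes is below 0.05. The difference was negative by 31 of the 33 probes, with a median of -0.08, where 22675 of the 45348 probes were negative. In that fit 5 member probes lay past the threshold, all with lower values in HS, where 0.911% of all probes did in either direction and 0.501% as lower in HS. The number of member probes was 9 with slide as a fixed block, 2 without slide 1 and 0 without slide 2, slide 3 or slide 4. The same contrast chose the genes, so the count only places these probes in the fit over all probes and is no test of the family.

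**Figure D1:**
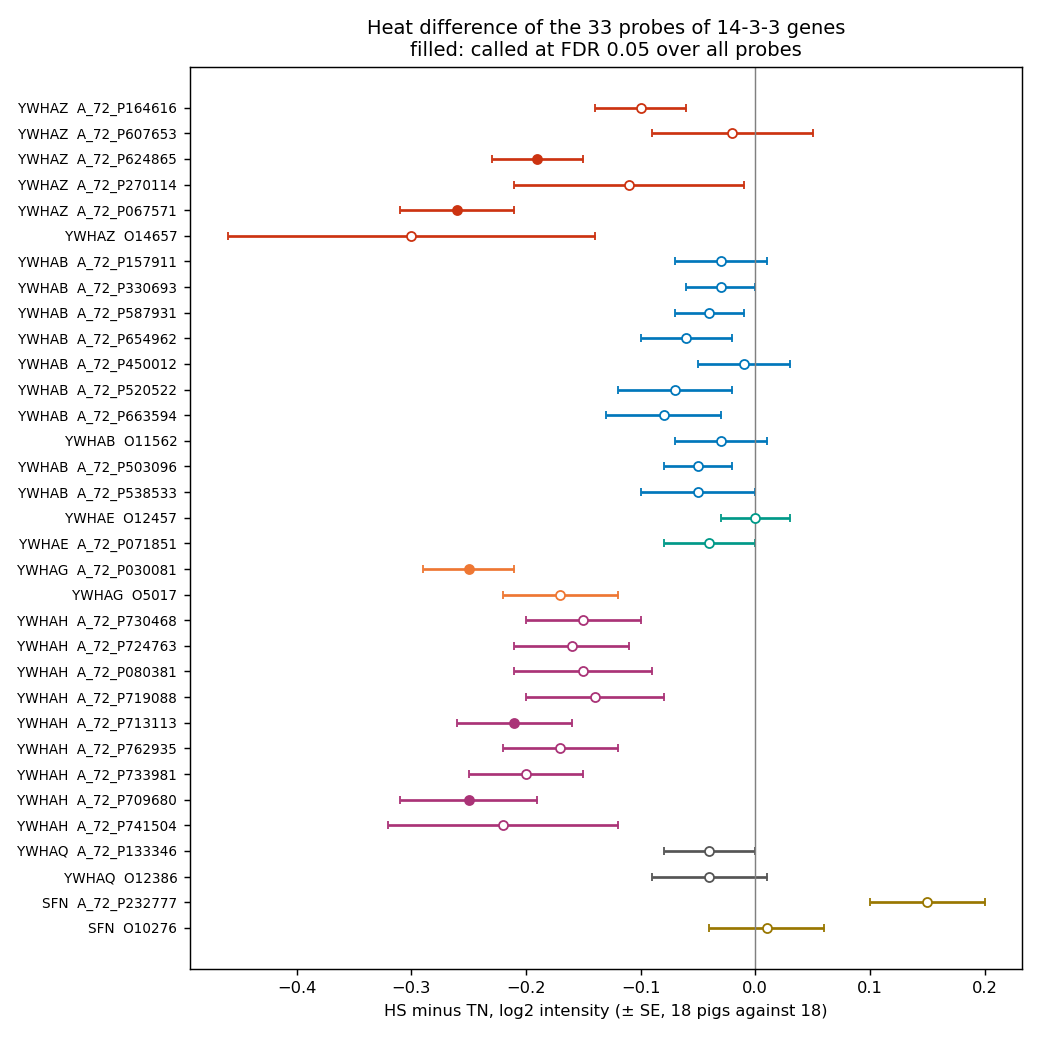
HS minus TN difference (x axis, log2 intensity, ± SE, 18 pigs against 18) of the 33 probes, coloured by gene, with filled points for the 5 probes past the threshold of the fit over all probes. All 9 YWHAH probes lie between -0.25 and -0.14, whereas the 10 YWHAB probes lie between -0.08 and -0.01.

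YWHAH had the same sign by every probe. All 9 probes were lower in HS, by -0.25 to -0.14 on the log2 scale, and all 9 were lower in each of the 3 breeds. Some differences in Large White were small for their SE. They were -0.01 (SE 0.16) by A_72_P741504, and -0.05 and -0.07 (SE 0.10 each) by A_72_P719088 and A_72_P080381. The brightest of the 9, A_72_P730468, had a lowest, median and highest log2 intensity of 12.65, 12.81 and 13.29 in TN pigs. In HS pigs the corresponding values were 12.56, 12.71 and 12.82. Each of the 18 HS pigs had less than the mean of the TN pigs of its breed, but the ranges overlapped. The Creole and cross TN means each hold 1 high pig, at 13.25 (the others 12.68 to 12.81) and 13.29 (the others 12.65 to 12.89). The medians were 12.77 in TN and 12.72 in HS Creole pigs, and 12.79 and 12.69 in cross pigs. In both, the highest HS pig, at 12.82, lay above the TN median. The HS minus TN difference of this probe was -0.15 (SE 0.05, or -9.64%), with -0.13 in Creole, -0.15 in Large White and -0.16 in cross pigs. The Creole and cross values include the high TN pigs. Without slide 2, which held both of these pigs, the difference was -0.09.

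A_72_P713113 and A_72_P709680 had large differences for their SE among the YWHAH probes. The values of A_72_P713113 were 11.05, 11.32 and 11.73 (lowest, median, highest) in TN and 10.99, 11.11 and 11.24 in HS pigs. Of the 18 TN pigs, 12 lay above the highest HS pig. In Large White the TN pigs ranged from 11.28 to 11.43 and the HS pigs from 11.05 to 11.21, with no overlap. A_72_P762935, also YWHAH, narrowly did not overlap either in Large White (HS up to 10.24, TN from 10.25), whereas over all probes 0.37% did not overlap there. No member probe was free of overlap in Creole or cross pigs, where the share over all probes was 0.174% and 0.809%. The HS minus TN difference of A_72_P713113 was -0.21 (SE 0.05) and that of A_72_P709680 -0.25 (SE 0.06, -15.8%).

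YWHAH varied with the medulla markers between pigs. After the group means were removed, the log2 intensity of its brightest probe followed the mean of the 8 medulla marker genes over the 36 pigs (Pearson r = 0.58, permutation p = 0.00049, adjusted over 35 relations 0.0172; Spearman rho = 0.66, permutation p = 6e-05, adjusted 0.0021). The relation held without the 2 pigs farthest from the median of the markers (r = 0.55) and with slide means removed as well (r = 0.51). With the 7 cortex marker genes r was 0.0 (permutation p = 0.98) and rho -0.09 (permutation p = 0.599). With the 5 epithelial marker genes r was 0.46 (permutation p = 0.00433, adjusted 0.0505) and rho 0.54 (permutation p = 0.0007, adjusted 0.0123). The medulla markers themselves were lower in HS by 7 of 8 genes, none of them called, with a list mean of 12.93 (12.48 to 13.38) in TN and 12.76 (12.34 to 13.09) in HS pigs. PNMT, which makes adrenaline, had a difference of -0.35 (SE 0.10, adjusted p = 0.0789, limma). The part of the medulla level in the YWHAH difference was not tested.

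**Figure D2:**
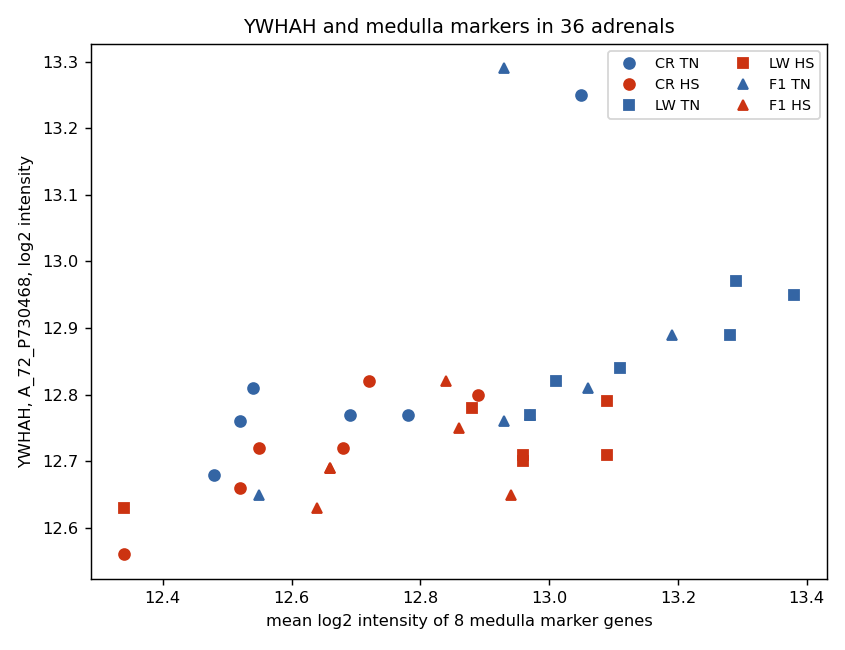
Log2 intensity of YWHAH (y axis, A_72_P730468) against the mean log2 intensity of 8 medulla marker genes (x axis) in 36 pigs, with shapes for breeds, blue for TN and red for HS. YWHAH rises with the markers, and 1 Creole TN pig at 13.25 and 1 cross TN pig at 13.29 lie above all others.

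The genes most like YWHAH over the 36 log2 values, group differences included, were RTN1 (r = 0.88), MLLT11 (r = 0.88) and RAB6B (r = 0.87). Their HS minus TN differences were -0.52, -0.25 and -0.36.

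YWHAG was lower by both probes. The brighter, A_72_P030081, had log2 intensities of 11.63, 11.78 and 12.03 (lowest, median, highest) in TN and 11.38, 11.53 and 11.81 in HS pigs. Of the 18 HS pigs, 13 lay below the lowest TN pig, and the other 5, up to 1 Creole pig at 11.81, lay among the TN pigs. The HS minus TN difference was -0.25 (SE 0.04, -15.6%). It was -0.16 in Creole, -0.23 in Large White and -0.35 in cross pigs (SE 0.07 each). The second probe, O5017, had -0.17 (SE 0.05).

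YWHAG followed the cortex markers among pigs of a group (r = 0.50, permutation p = 0.00206, adjusted 0.036; rho = 0.49, permutation p = 0.0027, adjusted 0.0315). Without the 2 farthest pigs r was 0.38, and with slide means removed as well it was 0.45. NR5A1, the transcription factor SF1 that specifies the steroidogenic cells, was itself lower in HS at -0.25 (SE 0.06, adjusted p = 0.0253, limma). It was the only one of the 7 cortex marker genes called. The list mean was 15.47 (15.29 to 15.59) in TN and 15.40 (15.22 to 15.66) in HS pigs, and its part in the YWHAG difference was not tested.

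YWHAZ gave differences of unequal size by its 6 probes, and 4 of them were lower in HS in all 3 breeds. A_72_P270114 had -0.11 (SE 0.10), with 0.04 in Large White, and A_72_P607653 had 0.13 in Large White. The brightest YWHAZ probe, A_72_P164616, had 12.77, 13.01 and 13.25 (lowest, median, highest) in TN and 12.68, 12.86 and 13.17 in HS pigs. The groups overlapped over most of their range, and the HS minus TN difference was -0.10 (SE 0.04). PSMC1, a proteasome ATPase, was the gene most like this probe over the 36 log2 values (r = 0.86), followed by ESF1 (r = 0.82) and GNL3L (r = 0.76).

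A_72_P067571 and A_72_P624865 had the largest YWHAZ differences for their SE. By A_72_P067571 the TN pigs had 10.78, 11.04 and 11.19 and the HS pigs 10.38, 10.72 and 11.08 (lowest, median, highest). Of the 18 HS pigs, 10 lay below the lowest TN pig. The difference was -0.26 (SE 0.05, -16.7%), with -0.31 in Creole, -0.36 in Large White and -0.13 in cross pigs (SE 0.09 each). By A_72_P624865 the values were 11.76, 11.96 and 12.20 in TN and 11.55, 11.80 and 11.98 in HS pigs, with a difference of -0.19 (SE 0.04). These 2 probes varied together over the 36 pigs, group differences included (r = 0.78, rho = 0.73). Both are shown for their HS minus TN differences, which enter this r, so it is no separate support for them.

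The probe on the opposite strand of A_72_P067571, whose shared 30 bases are printed above, did not follow it. A_72_P607653 had 11.75, 12.04 and 12.72 in TN and 11.68, 11.99 and 12.59 in HS pigs. The HS minus TN difference was -0.02 (SE 0.07). Its values ran weakly against those of A_72_P067571 over the 36 pigs, group differences included (r = -0.29, rho = -0.26). With the other YWHAZ probes, A_72_P607653 had r of -0.27 to -0.01 and A_72_P067571 of 0.14 to 0.78. Which of the 2 strands is the transcribed strand of YWHAZ was not read here, because no genome sequence was used.

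**Figure D3:**
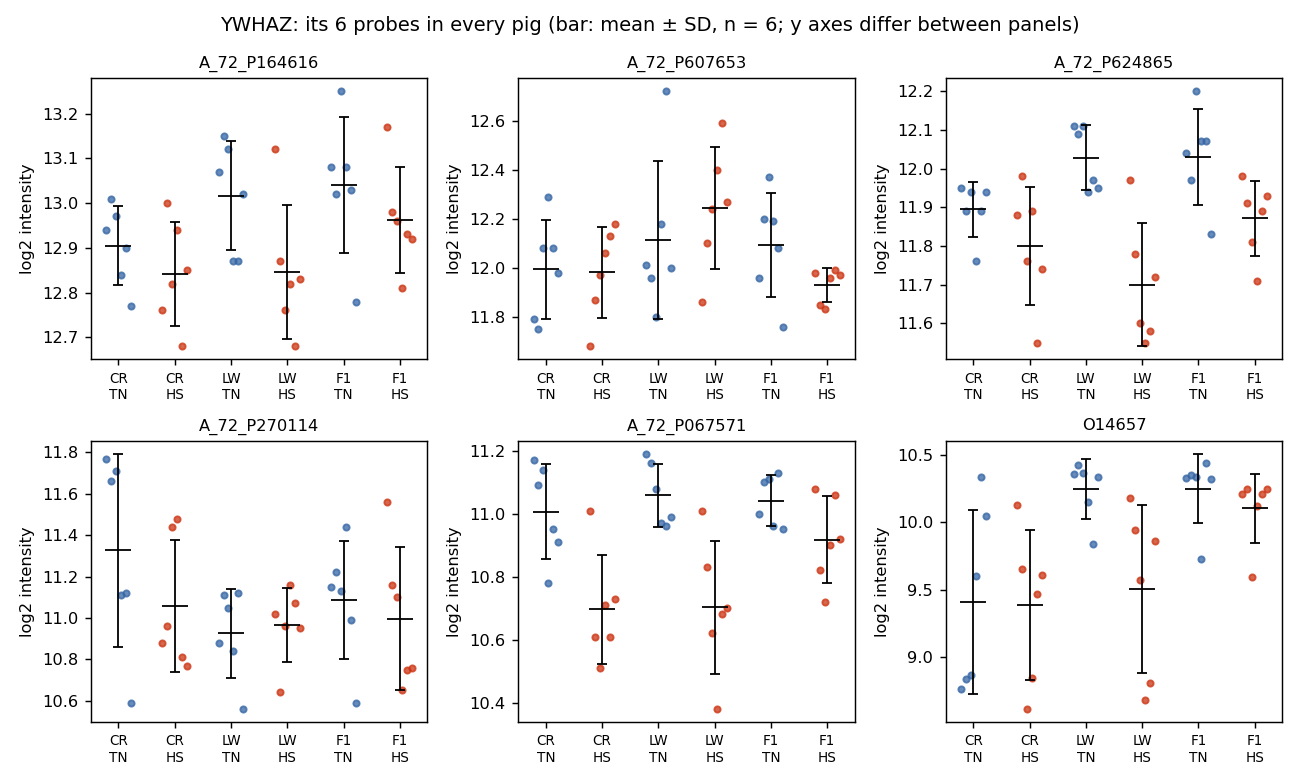
Log2 intensity (y axis) of the 6 YWHAZ probes in every pig by group (x axis: CR Creole, LW Large White, F1 cross), with mean ± SD of 6 pigs. A_72_P067571 and A_72_P624865 are lower in HS (red), A_72_P607653 is not, and O14657 spreads from 8.61 to 10.44.

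YWHAB, read by the most probes, had small differences between temperatures. Its 10 probes lay between -0.08 and -0.01, all negative. The brightest, A_72_P157911, had 14.76, 15.08 and 15.25 in TN and 14.72, 15.05 and 15.14 in HS pigs, with a difference of -0.03 (SE 0.04). The pairs of YWHAB probes with identical sequence gave -0.03 and -0.04 (A_72_P330693 and A_72_P587931) and -0.03 and -0.05 (O11562 and A_72_P503096).

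YWHAE and YWHAQ gave small differences by both probes of each gene. YWHAE by O12457 had 14.38, 14.56 and 14.76 in TN and 14.39, 14.54 and 14.77 in HS pigs, a difference of -0.283% with a 95% interval of -0.07 to 0.06 on the log2 scale. YWHAQ by A_72_P133346 had 14.19, 14.35 and 14.58 in TN and 14.16, 14.32 and 14.53 in HS pigs, a difference of -0.04 (SE 0.04). The TN and HS ranges overlapped almost entirely in both genes.

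SFN went the other way by 1 probe. Both SFN probes were dim, with means of 7.52 and 6.24, where the median of all probes on an array was 8.52 to 8.53. A_72_P232777 had 7.25, 7.42 and 7.72 in TN and 7.36, 7.54 and 7.88 in HS pigs. The difference was 0.15 (SE 0.05, 10.7%), with 17 of 18 HS pigs above the mean of the TN pigs of the same breed. The second probe, O10276, had 0.01 (SE 0.05), and the 2 SFN probes did not vary together, group differences included (r = 0.02). Of the 7 epithelial marker genes, 5 had a probe and none was called in heat. All 5 were lower in HS, with a list mean of 7.54 (7.12 to 7.84) in TN and 7.42 (6.98 to 7.70) in HS pigs, and KRT5 was the dimmest at 5.93. Their part in the SFN difference was not tested.

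**Figure D4:**
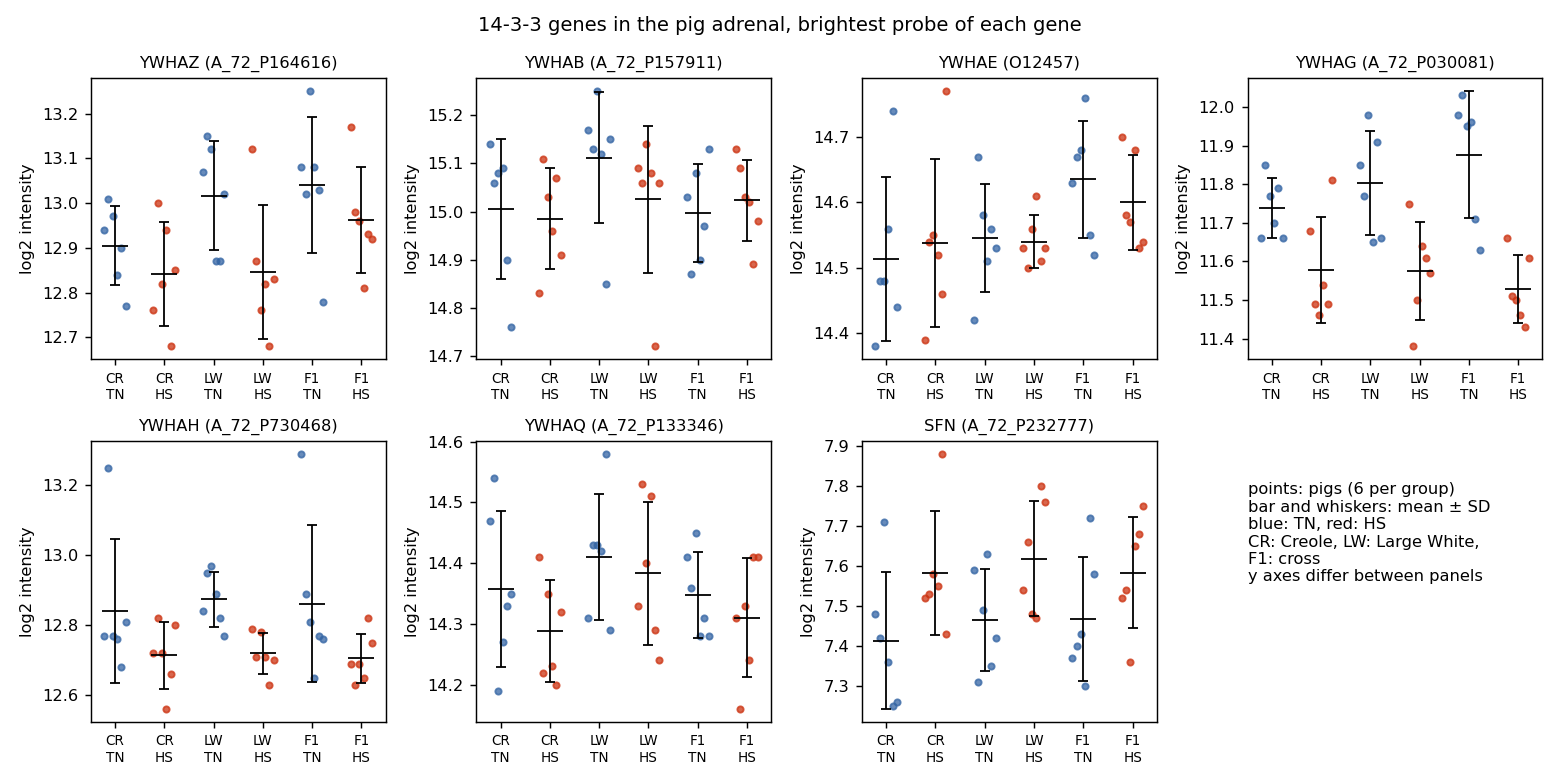
Log2 intensity (y axes, different in each panel) of the brightest probe of the 7 genes in 36 pigs by breed and temperature (x axis), with mean ± SD of 6 pigs. YWHAG and YWHAH are lower in HS (red) than in TN (blue) in each breed, and SFN is higher.

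The heat difference of the family did not differ detectably between breeds. The breed by temperature interaction was called for 0 of 33 member probes, and 0.0% of all probes were called. None of the 33 had an unadjusted p below 0.05, against 1914 of all probes. The lowest unadjusted p in the limma F test was 0.0687 for A_72_P624865 of YWHAZ (adjusted p = 0.982), where the difference was -0.09 in Creole, -0.33 in Large White and -0.16 in cross pigs (SE 0.07 each).

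Breed was taken as a comparison that had not served to choose the genes. By the F test over the 3 breeds 1 of 33 member probes (3.03%) was called, while 10.6% of all probes were. Several member probes read the same bases, and the share of the members was not tested against that of all probes. The contrast Large White minus Creole was called for 0 member probes and 11.5% of all probes, with 6 member probes and 11070 of all probes at an unadjusted p below 0.05. Large White was the higher breed by 27 of the 33 member probes, where 49.9% of all probes were higher in it. The median size of the difference was 0.06 over the member probes and 0.08 over all probes. The contrast of the cross with the mean of its parental breeds was called for 0 member probes and 0.415% of all probes, with 6 and 5057 at an unadjusted p below 0.05.

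The breed call came from O14657, the dimmest YWHAZ probe (adjusted p = 0.0163, limma F test). Its lowest, median and highest log2 intensities were 8.76, 9.23 and 10.34 in Creole TN pigs and 8.61, 9.54 and 10.13 in Creole HS pigs. In cross pigs they were 9.73, 10.34 and 10.44 in TN and 9.59, 10.21 and 10.25 in HS. Large White TN pigs had 9.84, 10.35 and 10.43, and Large White HS pigs 8.68, 9.71 and 10.18. The low values were thus in both Creole groups and in Large White HS pigs, and no cross pig lay below 9.59.

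The same probe differed by 0.48 between Large White and Creole (95% interval 0.09 to 0.87, adjusted p = 0.104, limma), a value that was 0.27 without slide 2, 0.32 without slide 3 and 0.77 without slide 4. The F call was lost without slide 2, slide 3 or slide 5. The cross lay 0.54 above the mean of its parental breeds (95% interval 0.21 to 0.88, adjusted p = 0.143, limma). For the other 5 YWHAZ probes the breed F test gave adjusted p between 0.24 and 0.383 (limma). Over the 36 pigs, group differences included, O14657 ran with A_72_P624865 (r = 0.53, rho = 0.63), A_72_P067571 (r = 0.52, rho = 0.57) and A_72_P164616 (r = 0.39, rho = 0.54). It ran against A_72_P270114 (r = -0.55, rho = -0.29). By A_72_P624865, A_72_P067571 and A_72_P164616 the cross lay 0.09, 0.11 and 0.10 above its parental breeds. The unadjusted p were 0.0481, 0.0451 and 0.0382 and the adjusted p 0.442, 0.432 and 0.41 (limma).

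**Figure D5:**
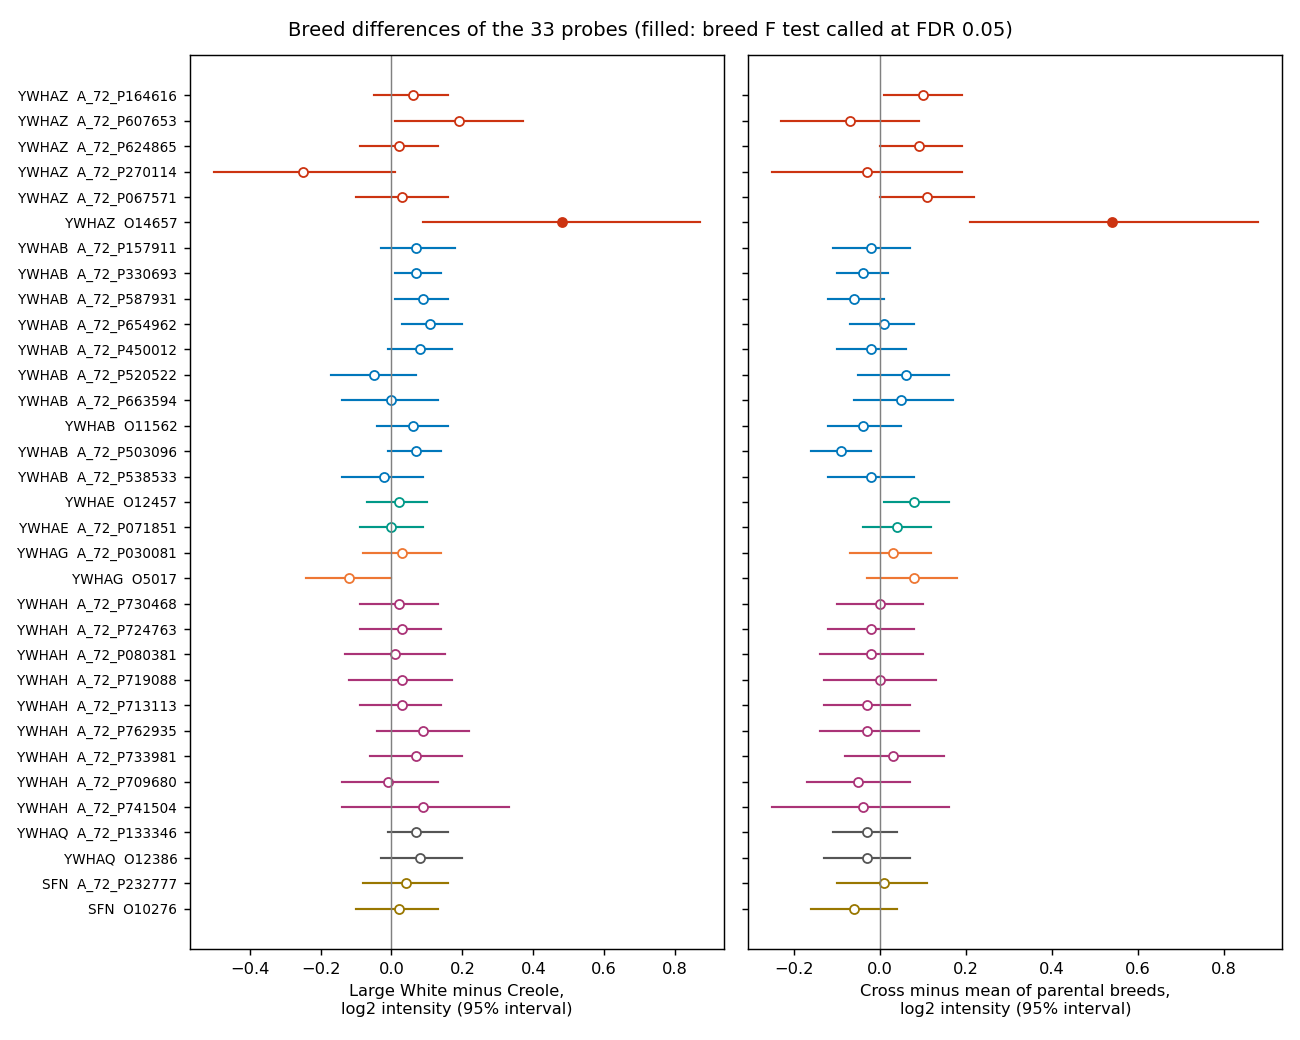
Large White minus Creole (left) and cross minus mean of the parental breeds (right), in log2 intensity with 95% intervals (x axes), for the 33 probes (rows, coloured by gene), with filled points where the breed F test was called. O14657 of YWHAZ, at 0.48 and 0.54, stands apart from the other probes.

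By their brightest probes the remaining genes had intervals that held 0 between the parental breeds. For YWHAH by A_72_P730468 Large White minus Creole was 0.02 (95% interval -0.09 to 0.13), although CHGB and SCG2, secretory granule proteins of the medulla, were higher in Large White by 0.53 and 1.03 (adjusted p = 0.000141 and 1.9e-06, limma). For YWHAG it was 0.03 (-0.08 to 0.14) by A_72_P030081 but -0.12 (SE 0.06, unadjusted p = 0.0431, adjusted p = 0.187, limma) by O5017. YWHAE by O12457 had 0.02 (-0.07 to 0.10) and YWHAQ by A_72_P133346 0.07 (-0.01 to 0.16). SFN by A_72_P232777 had 0.04 (-0.08 to 0.16) and YWHAB by A_72_P157911 0.07 (-0.03 to 0.18). The intervals of 3 other YWHAB probes did not hold 0, those of A_72_P330693 (0.01 to 0.14), A_72_P587931, which has the same sequence (0.01 to 0.16), and A_72_P654962 (0.03 to 0.20), with adjusted p of 0.165, 0.125 and 0.0833 (limma).

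Among pigs of a group the members did not vary as 1 block. Of 21 pairs of brightest probes, 2 passed the permutation test after adjustment over the pairs. YWHAE and SFN ran against each other (r = -0.54, permutation p = 0.00058, adjusted 0.0122; rho = -0.60, permutation p = 0.00014, adjusted 0.00294), and r was -0.50 without the 2 pigs farthest from the median. YWHAH and YWHAQ ran together (r = 0.45, permutation p = 0.00461, adjusted 0.0484; rho = 0.51, permutation p = 0.00163, adjusted 0.0171), with r = 0.36 without the 2 farthest pigs. With slide means removed as well the r of these pairs were -0.58 and 0.54. YWHAE with YWHAG then also passed the threshold (r = 0.48, permutation p adjusted 0.0222). Before that removal it had r = 0.42 (permutation p adjusted 0.05255) and rho = 0.41 (permutation p adjusted 0.0977). YWHAQ also ran with the medulla markers, short of the threshold after adjustment (r = 0.42, permutation p = 0.0108, adjusted 0.0851; rho = 0.42, permutation p = 0.0114, adjusted 0.0798). With slide means removed as well its r was 0.58, beside 0.51 for YWHAH.

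Genes whose products bind 14-3-3 proteins, or act beside such partners, were taken as lists. Of 67 partner genes in 6 lists, 47 had a named probe, and 2 were called in heat, both lower in HS, beside 1.0% of the 10354 named genes by their brightest probe. The share of the partner genes was not tested against that of all genes. The count was 1 without slide 1 or slide 2 (DYNLL1) and 0 without slide 3 or slide 4. The median difference of the 47 was -0.02. Both calls are given with their values below and the lists without a call by up to 2 genes with the smallest p.

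DYNLL1, a dynein light chain that holds the cell death protein BIM, was the 1 of 11 apoptosis and survival partners called. It had a log2 intensity of 15.07 ± 0.14 (SD, n = 18) in TN and 14.80 ± 0.17 (SD, n = 18) in HS pigs, a difference of -0.27 (SE 0.05, adjusted p = 0.00936, limma) seen in 17 of 18 HS pigs against the TN pigs of their breed. CDK1, the kinase that drives entry into mitosis, was the 1 of 5 measured cell cycle partners called. It was lower by both of its probes, with a difference of -0.38 (SE 0.09, adjusted p = 0.0348, limma) in 17 of 18 HS pigs, and the call was lost with any of 9 single arrays left out.

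In the RAF and MAP kinase list, 0 of 8 measured genes were called. MAP2K1, a MAP kinase kinase, had -0.13 (SE 0.04, adjusted p = 0.129, limma). Among the 10 measured nuclear shuttling partners 0 were called, and the genes with the smallest p, YAP1 of the Hippo pathway and the histone deacetylase HDAC5, both had 0.17 (SE 0.05 and 0.06, adjusted p = 0.0962 and 0.132, limma). Among 9 insulin and mTOR signalling partners 0 were called, with -0.10 (SE 0.04) for PDPK1, the kinase that activates AKT, and 0.13 (SE 0.07) for PFKFB3, which makes an activator of glycolysis. Among 4 adrenal partners 0 were called, with 0.16 (SE 0.07) for PRKACB, a catalytic subunit of protein kinase A, and -0.15 (SE 0.06) for STAR.

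By breed, the F test called 7 of the 47, where 11.0% of all named genes were called. The count was 2 without slide 2 (PRKACB and STAR) and 1 without slide 3 (PRKACB). PRKACB was higher in Large White than in Creole by 0.52 (SE 0.08, adjusted p = 3.31e-05, limma) and STAR lower by -0.34 (SE 0.08, adjusted p = 0.00296, limma). TBC1D1, a regulator of glucose transporter traffic, was lower in Large White by -0.96 (SE 0.27, adjusted p = 0.0149, limma) and DYNLL2 by -0.32 (SE 0.08, adjusted p = 0.00837, limma). LATS2, a Hippo kinase, had -0.21 and ARAF, a RAF kinase, 0.19 (adjusted p = 0.00231 and 0.0251, limma). HDAC7 was called by the F test alone (adjusted p = 0.026, limma). With 1 array left out the F call was lost in 18 of 36 fits for ARAF, in 12 for TBC1D1, in 2 for HDAC7 and in 0 for the other 4 genes. Adipocyte marker genes also differed by breed, 3 of 5 by the F test, with ADIPOQ at -1.62 in Large White minus Creole, and the part of fat in these differences was not tested.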

How the data were processed

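RNA of 36 adrenal glands was labelled with Cy3 and hybridised to 1-colour arrays. The authors extracted the spots with Agilent Feature Extraction 10.10.1.1, per the file headers and the submitters' processing notes, and the deposited scanner files hold each spot's intensity, without normalization between arrays. The table deposited by the authors, the main source here, gives 45348 probes as log2 values of the quantile-normalized median pixel intensity, and had 0 columns of other samples. Its rule for keeping probes is not given in the sources used here. Quantile normalization forces equal distributions, so a change shared by most probes would not be seen.

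Probes were named by gene name (21382), by gene ID (2629), by RefSeq transcript (1796) or by an older symbol (196), and 34302 had no name. Sequences come from the probe annotation of the scanner files and coordinates from RefSeq. Limma 3.58.1 in R 4.3.3 (lmFit, eBayes, statmod 1.5.0) was fitted with breed and temperature over all probes, with Benjamini-Hochberg adjustment at 0.05, and the interaction by an F test. The authors' random effects of pen, slaughter day and parents could not be fitted. Correlations used 100000 permutations (SciPy 1.17.1). Those with marker lists were added after the data were seen. The fit was tested on simulated data.

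The members, the partner lists and the marker lists were chosen with earlier results of these data known. All members were named by every probe, with the brightest as the gene's value. From a partner list all called genes were named, at most 4, else the 2 with the smallest p. For likeness the 3 genes with the highest r were taken. Of the partner genes so chosen, 1 is not given here. Some partner genes, such as TH, had no named probe. Alternatives were scanner intensities (probes well above background on at least 9 arrays of TN or HS), scaling to the 75th percentile, normexp (offset 50), a stricter filter, slide as a block, array weights, an intensity trend, and each slide or array left out.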

Additional observations from a re-analysis of the deposited data

Results flagged for a closer look

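Of 72 groups of 6 pigs examined over 12 probes, 9 held a pig whose gap to the nearest pig was large for its group's range, where chance gives about 1 in 20. For YWHAB (A_72_P157911) these were the lowest Large White pigs, at 14.85 in TN where the others had 15.12 to 15.25, and at 14.72 in HS where the others had 15.06 to 15.14. For YWHAH (A_72_P730468) they were the highest TN pigs, Creole TN replicate 2 at 13.25 against 12.68 to 12.81 and cross TN replicate 1 at 13.29 against 12.65 to 12.89. Creole TN replicate 2 was also highest by A_72_P709680 of YWHAH, at 10.20 against 9.54 to 9.68. The mean of the medulla markers was 13.05 in Creole TN replicate 2, the highest of its group, and 12.93 in cross TN replicate 1. For SFN (A_72_P232777), Creole HS replicate 5 had 7.88 against 7.43 to 7.58. For YWHAZ, Creole TN replicate 4 had 11.76 against 11.89 to 11.95 by A_72_P624865, and by O14657 cross TN replicate 4 had 9.73 against 10.32 to 10.44 and cross HS replicate 3 had 9.59 against 10.12 to 10.25.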

How the results depend on the processing

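The heat difference was called for 5 member probes by the deposited values. The count was 9 with slide as a fixed block, where calls over all probes rose from 413 to 899. It was 2 without slide 1 and 0 without slide 2, slide 3 or slide 4, where all probes gave 171, 40, 34 and 53 calls. With 1 array left out it was 5 to 7, and 7 was reached without Creole HS replicate 6. The log2 differences of the 5 called probes stayed negative under all of these settings, from -0.31 to -0.16. Of the other described probes, A_72_P730468 of YWHAH ran from -0.18 to -0.09 and O14657 of YWHAZ from -0.44 to -0.13. SFN by A_72_P232777 was called at 0.22 with the 75th percentile. The breed F test called 0 member probes without slide 2, slide 3 or slide 5, and 1 with any array left out. Large White minus Creole was called for 1 member probe with normexp, slide as a fixed or random block, array weights or without slide 4, and for 0 to 1 with 1 array left out, with 1 without Creole HS replicate 1 or 2 or Large White HS replicate 4 or 5. The probe was A_72_P654962 of YWHAB with normexp and the slide blocks, and O14657 of YWHAZ with array weights (0.57) and without slide 4 (0.77), while O14657 had 0.27 without slide 2 and 0.32 without slide 3. The contrast of the cross and the interaction gave 0 throughout. The cause was not tested. The partner genes called in heat were 2, but 1 with the 75th percentile or without slide 1 or slide 2, 0 without slide 3 or slide 4, and 1 to 3 with 1 array left out. CDK1 was lost without Creole TN replicate 1 or 3, Creole HS replicate 3, cross TN replicate 2, 3 or 4, cross HS replicate 2 or 5, or Large White HS replicate 6. By breed they were 7, but 2 without slide 2, 1 without slide 3, 5 to 9 under the other alternatives and 5 to 7 with 1 array left out. ARAF was called under 8 of the 13 alternatives that kept all arrays or left out a slide, and TBC1D1 and HDAC7 under 10. HDAC7 was lost without cross HS replicate 1 or 3. TBC1D1 was lost without Creole TN replicate 1, 2, 3 or 5, Creole HS replicate 3 or 4, Large White TN replicate 1, 3, 4 or 6, or Large White HS replicate 1 or 6. ARAF was lost without Creole TN replicate 2, 3 or 5, Creole HS replicate 1, 2, 3 or 4, Large White TN replicate 2, 3, 5 or 6, Large White HS replicate 1 or 6, cross TN replicate 1, 5 or 6, or cross HS replicate 1 or 3. For the partner genes only the choice of probe, scanner intensities and slide blocks were planned, and the rest were added after seeing the data. The correlated pairs were 2 to 3 in the 2 alternatives run. No paired analysis was possible because the labels give no replicate numbers. All member probes were well above background on all arrays.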
